A study of Lupinus albus with 12 samples.

Results

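Proteoid roots of white lupin (Lupinus albus, variety Ultra) were compared with leaves of plants raised on the same phosphorus-deficient solution. The comparison rests on 6 RNA-seq libraries, 3 of proteoid roots (PdR1, PdR2, PdR3) and 3 of leaves (PdL1, PdL2, PdL3), out of 12 in the series. Sequences at 1 RPKM or more (reads per unit of sequence length and of library total, taken to be the unit of the deposited values) in at least 3 of these 6 libraries were kept, which left 71553 of 125535 (57%). Both groups received 1 mM calcium sulfate in place of 1 mM calcium phosphate, grew in a chamber at 20 °C by day and 15 °C by night with a 16 h photoperiod, and were harvested 14 days after emergence. The other 6 libraries, of roots and leaves given calcium phosphate, serve here only to ask whether the tissue difference differs between the supplies. Per the labels, the deficient root material is proteoid root and the sufficient material plain root. In that comparison phosphorus supply and root type therefore cannot be told apart. The labels state 3 biological replications per condition and do not say how many plants made up a sample, so p-values measure the spread between these samples.

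White lupin forms proteoid or cluster roots, dense rows of short, hairy rootlets, when phosphate is scarce. These rootlets release citrate and malate, which free phosphate bound to calcium, iron and aluminium, and secrete acid phosphatases that free it from organic compounds. Transporters of the PHT1 family, which move phosphate into the cell together with protons, then take it up. Leaves fix carbon dioxide with RuBisCO and the light-harvesting apparatus of the chloroplast, and supply the root with the sugar from which organic acids are made. Gene names below are those of the best match in the deposited annotation, to Arabidopsis where it gives a symbol, and roles are those known from Arabidopsis unless another species is named.

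A leaf library and a root library stood apart from the rest of their groups. The summed RPKM was 813733.8, 836595.0 and 842749.4 in proteoid roots and 885651.8, 884235.5 and 1178058.3 in leaves. The 20 largest sequences held 6.575 to 7.509% of the sum in proteoid roots, against 17.98%, 12.51% and 70.91% in leaves, and 17 of the 20 in PdL3 lacked an informative description. Other sequences therefore have low values in PdL3, and the median RPKM of kept sequences was 3.6, 3.2 and 3.2 in proteoid roots and 2.8, 3.4 and 1.2 in leaves. PdR1 differed from PdR2 and PdR3, with an SD of the log2 difference between libraries of 0.92 and 0.97, while PdR2 and PdR3 differed by 0.35. Of 7432 sequences with a root mean of 20 RPKM or more, 676 stood in PdR1 at under a 5th of both other root libraries, and 0 stood that low in PdR2 or in PdR3. Per the labels, replicate 1 of each group was sequenced without a barcode and replicates 2 and 3 with barcodes.

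The tissues were compared with limma on log2(RPKM + 0.5), a scale that understates differences of low sequences. The fit gave all sequences of like abundance 1 pooled spread (median SD 0.684 on the log2 scale), because its prior degrees of freedom were infinite. Very small p-values from it therefore do not reflect how tightly a sequence's own replicates lie together. Median-of-ratios scaling, which sets aside the dominant sequences of PdL3, gave a fit with prior degrees of freedom of 2.99 and a median SD of 0.336. The adjusted p of that second fit is called the rescaled adjusted p here and is printed beside the leading genes. "Higher", "lower", "rose" and "fell" mean an adjusted p below 0.05 in the first fit, and a call lost under rescaling is named.

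A large part of the transcriptome differed between the tissues. Of the 71553 sequences, 18216 (25.5%) were higher in proteoid roots and 8433 (11.8%) were lower, together 37.2%. The median log2 difference over all sequences was 0.48. After median-of-ratios scaling the median was 0.04, and 17593 sequences (24.6%) were higher and 15546 (21.7%) lower. Calls in the same direction under both scalings numbered 24140, of which 15789 were higher and 8351 lower in proteoid roots, and 0 changed direction. The share of calls that were higher was 68.4% as deposited and 53.1% after scaling, so the excess of root-high sequences depends on the scaling. Among the largest differences, 2224 sequences were higher by at least 4 log2 units and 1781 were lower by at least 4. A total of 33143 sequences (46.3%) stood at 1 RPKM or more in all 6 libraries.

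The 12 largest differences on the root side were led by a quinone reductase family protein, LAGI01_55791, with 601, 717 and 728 RPKM in proteoid roots and 0, 0.3 and 0.1 RPKM in leaves. A protease inhibitor and lipid transfer protein, LAGI01_58509, had 1246, 769 and 453 RPKM in proteoid roots and 0.2, 0.9 and 0.4 RPKM in leaves. The osmotin ATOSM34 (LAGI01_47843), a defence protein of the thaumatin group, had 299, 736 and 465 RPKM in proteoid roots and 0.3, 0.1 and 0.2 RPKM in leaves. The leaf libraries lay at or below 0.9 RPKM for all of these, and no root library came near them. Other root-high sequences were FQR1 (a quinone reductase induced by auxin), UCC2 (a copper protein of the cell surface), GLP5 (germin-like protein 5) and a lectin protein kinase. The set also held CKX3 and CKX2 (enzymes that degrade cytokinin), LPR1 (a multicopper oxidase named for its part in root growth at low phosphate), ATOMT1 (an O-methyltransferase of phenolics) and LAGI01_74402. The annotation of LAGI01_74402 gives a weak match to L18A_LUPLU, a PR10 protein of yellow lupin. FQR1 was listed at 0 in all 3 leaf libraries and at 214, 322 and 289 RPKM in proteoid roots.

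On the leaf side, the small subunit of RuBisCO, the enzyme that fixes carbon dioxide, gave the largest difference. One sequence, LAGI01_69646, had 1.1, 5 and 0 RPKM in proteoid roots and 37967, 20515 and 6566 RPKM in leaves. A second, LAGI01_65894, had 2.2, 5.6 and 3.4 RPKM in proteoid roots and 24098, 20049 and 5761 RPKM in leaves. PdL3 was the lowest leaf library for both, and no root library came near it. FED A, the ferredoxin that receives electrons from photosystem I, had 1, 1.7 and 0.6 RPKM in proteoid roots and 6437, 4859 and 1474 RPKM in leaves. RuBisCO activase (RCA, LAGI01_101036), the lipid transfer protein LTP4, the photosystem subunits PSAG, PSBP-1 and PSBW, the antenna protein LHCB3 and carbonic anhydrase CA1 completed the set with RD22 and ATPC1. RD22, a gene named for its response to drying, and ATPC1, a subunit of the chloroplast ATP synthase, were listed at 0 in every root library. Over these 24 sequences the standard error of the log2 difference ran from 0.601 to 0.665, and the rescaled adjusted p from 4.04e-06 to 4.45e-05.

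**Figure D1:**
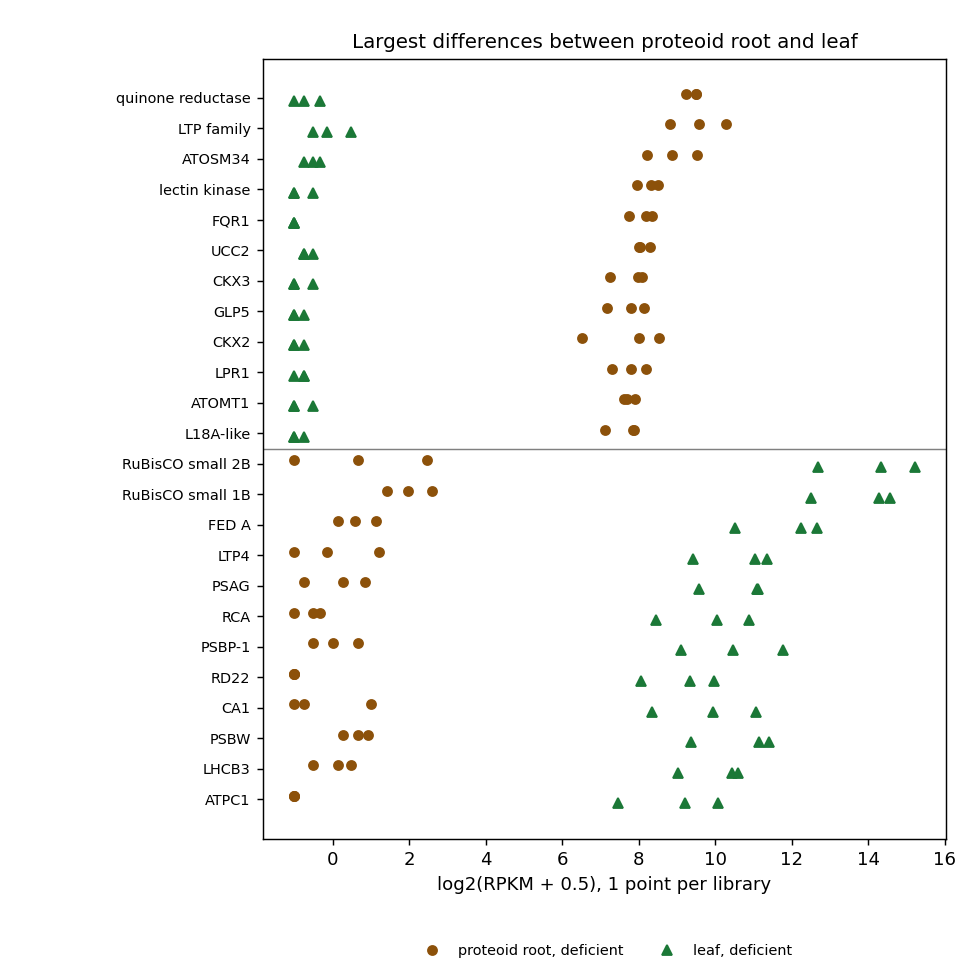
RPKM on a log axis, as log2(RPKM + 0.5), of the 24 sequences with the largest differences in each of the 6 libraries, with proteoid roots before leaves. The 12 root-high sequences lie at or below 0.9 RPKM in every leaf library, and the 12 leaf-high ones at or below 5.6 RPKM in every root library.

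The plot of the 24 largest differences shows each library as a point, so that the lower position of PdL3 among the leaf libraries can be seen beside the gap between the tissues. Sequences listed at 0 in all 3 leaf libraries and at 5 RPKM or more in all 3 root libraries numbered 419. The reverse held for 326. In the MapMan scheme of plant processes, 2 of the 419 belonged to photosynthesis, and 47 of the 326 (14.4%), against 0.626% of all sequences tested. Of the 419, 148 (35.3%) had no class assigned, against 33.7% of all tested. The 419 held 62 miscellaneous enzymes (14.8%, against 3.66% of all tested), 26 of secondary metabolism (6.21%, against 1.39%), 19 of stress (4.53%, against 2.53%) and 17 of hormone metabolism (4.06%, against 1.76%). Transport stood nearer its share of all tested, with 21 (5.01%, against 4.11%), and RNA was below it, with 36 (8.59%, against 12.0%).

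The genes of 41 lists matched on the description were then counted, each read against the background of 25.5% higher and 11.8% lower. Several sequences of a list share a description, and how reads were divided between such near-identical copies is not given in the sources used here, so members are not independent. A member that passed the filter through a single tissue had to differ, and the counts are descriptions of the members that passed. In whole tissue, fewer cells of a type and less RNA per cell cannot be told apart.

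Light harvesting belonged almost wholly to the leaf. Of 51 antenna sequences, 50 passed the filter and 50 were lower in proteoid roots, with a median log2 difference of -6.48. Their summed level was 90.5, 81.1 and 64.4 RPKM in proteoid roots and 59493.1, 40291.6 and 14847.9 RPKM in leaves. CAB1 (LAGI01_53674), a chlorophyll a/b binding protein of photosystem II, had 49.6, 55 and 45 RPKM in proteoid roots and 32619.7, 18533 and 7146 RPKM in leaves. It was the antenna sequence with the most root signal. CP29 (LAGI01_54986), a minor antenna protein, had 4.3, 2.4 and 1.9 RPKM in proteoid roots and 3479, 2939.8 and 1014 RPKM in leaves, and LHCA3, an antenna protein of photosystem I, had 2.8, 2.3 and 0.9 RPKM in proteoid roots and 3178, 2029 and 718 RPKM in leaves. No root library reached a leaf library for any of these.

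Photosystem subunits followed the same pattern. All 58 tested of 60 fell in proteoid roots, with a median of -6.61, and 54 of them also fell after rescaling. PSAF, the subunit of photosystem I that docks plastocyanin, had 4.2, 3.1 and 1.9 RPKM in proteoid roots and 2562, 2262 and 707 RPKM in leaves. All 15 tested sequences of photosynthetic electron transport fell too (median -5.41, 14 after rescaling). PETC, the Rieske iron-sulfur protein, had 0.5, 1.2 and 1.8 RPKM in proteoid roots and 1398, 669 and 234 RPKM in leaves, and DRT112, a plastocyanin, had 0.1, 0 and 0 RPKM in proteoid roots and 184, 282 and 74.9 RPKM in leaves. A subunit of the cytochrome b6f complex, LAGI01_76065, was listed at 0 in the 3 root libraries and at 134, 126 and 44.4 RPKM in leaves. The photosynthesis class as a whole carried 0.232%, 0.228% and 0.245% of the summed RPKM of proteoid roots, and 21.7%, 14.8% and 3.84% of that of leaves. The share is lowest in PdL3, where 20 sequences held 70.91% of the sum.

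Carbon fixation and photorespiration had exceptions. Of 61 tested Calvin cycle sequences 56 fell and 3 rose (median -4.31). RuBisCO small subunit sequences were among the 3 that rose. LAGI01_87931 had 8.5, 53.4 and 42.9 RPKM in proteoid roots and 0.3, 0.2 and 0.6 RPKM in leaves, and LAGI01_37880, described as RBCS1A, had 2.5, 20.9 and 25.4 RPKM in proteoid roots and 0.1, 0.2 and 0.1 RPKM in leaves. Both are small against the leaf forms, and both were chosen for mention after their values were seen. In each of them PdR1 was the lowest root library. Photorespiration, which recovers the carbon lost when RuBisCO reacts with oxygen, had 55 lower and 11 higher of 73 (median -3.42). Glycolate oxidase LAGI01_92341 had 0.5, 0.4 and 0.3 RPKM in proteoid roots and 1192, 566 and 206 RPKM in leaves, and SHM1, the mitochondrial serine hydroxymethyltransferase of the pathway, had 1.5, 0.9 and 1 RPKM in proteoid roots and 613, 320.4 and 104 RPKM in leaves. The leaf form of the H protein of glycine cleavage, LAGI01_66573, had 1.4, 0.4 and 0.7 RPKM in proteoid roots and 1096, 742 and 221 RPKM in leaves, while 7 of the 8 tested sequences of that description were higher in proteoid roots.

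Chlorophyll synthesis had 59 lower and 5 higher of 68 tested (median -3.85). CRD1, a cyclase subunit of the pathway, had 5, 1.8 and 1.9 RPKM in proteoid roots and 956, 779.7 and 255 RPKM in leaves. PORA, a light-dependent protochlorophyllide reductase, had 1.3, 2.4 and 3.4 RPKM in proteoid roots and 676, 674 and 262 RPKM in leaves, and CHLM, a methyltransferase, 2.3, 0.7 and 1.3 RPKM in proteoid roots and 265, 193 and 70.8 RPKM in leaves. The 5 that rose were all described as HEMA1, the glutamyl-tRNA reductase that makes the precursor shared by chlorophyll and heme. After rescaling 0 of the list were higher and 62 lower. Plastid ribosomal proteins had 21 lower and 0 higher of 23, and the small-subunit protein S20 (LAGI01_59650) had 17.7, 5.7 and 6.2 RPKM in proteoid roots and 707, 596 and 186 RPKM in leaves.

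Leaf surface and leaf identity genes were mostly lower in proteoid roots. Of 88 tested genes of cuticle and epidermal lipids 61 fell and 6 rose (median -3.21). CER2, needed to elongate wax precursors, had 0, 0.2 and 0 RPKM in proteoid roots and 71.2, 210.1 and 40.7 RPKM in leaves. KCS2, a fatty acid elongase, had 5.4, 5.7 and 3.4 RPKM in proteoid roots and 157, 203 and 46.4 RPKM in leaves. KCS4, another elongase and a gene expressed in both organs, had 66.3, 75.6 and 61.8 RPKM in proteoid roots and 58.5, 56.5 and 22.9 RPKM in leaves, a difference of 0.67 (adjusted p = 0.452) that did not pass limma's test. Regulators of leaf development had 54 lower and 5 higher of 100, and 34 lower without PdR2. YAB5, of the YABBY family that marks the lower leaf side, was listed at 0 in the root libraries and at 22.2, 21 and 8.3 RPKM in leaves. AS1, a MYB factor of leaf polarity, had 2, 0.3 and 0.5 RPKM in proteoid roots and 35.9, 39.3 and 15.3 RPKM in leaves. All 11 tested sequences described as the YABBY factor AFO and all 13 as TCP24 fell.

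Starch genes were more often lower than higher in proteoid roots. The list had 36 lower and 14 higher of 94 tested, with a median of -0.46. Without PdR2, PdR3 or PdL1 the lower count was 20 or 21. APL1 (LAGI01_20534), a large subunit of the enzyme that makes ADP-glucose for starch, had 0, 0.1 and 0 RPKM in proteoid roots and 60.4, 45.6 and 12.8 RPKM in leaves. ADG1, the small subunit, had 18, 10.1 and 8.6 RPKM in proteoid roots and 104, 56.4 and 18.7 RPKM in leaves, and fell (rescaled adjusted p = 0.00188). Of the 14 that rose, 13 were described as BMY3, a beta-amylase. The most abundant BMY3 sequence, LAGI01_41388, had 2, 30.2 and 50.8 RPKM in proteoid roots and 8.9, 2.1 and 1.3 RPKM in leaves. PdR1 lay among the leaf libraries, and the difference of 2.16 did not pass after rescaling (rescaled adjusted p = 0.276). After rescaling the list had 3 higher and 54 lower.

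Phosphate uptake genes were high in proteoid roots and near absent from leaves. Of 15 PHT1-type sequences 14 passed the filter, 12 were higher in proteoid roots and 0 lower, with a median log2 difference of 4.99. Their summed level was 513, 694 and 536 RPKM in proteoid roots and 31.1, 28.1 and 9.8 RPKM in leaves. All 8 sequences described as PHT5 and 4 of 6 described as ATPT2 rose. PHT5 sequence LAGI01_18482 had 49.3, 126 and 94.3 RPKM in proteoid roots and 4.3, 0.9 and 0.4 RPKM in leaves. ATPT2 sequence LAGI01_53442 had 56.3, 92 and 64.2 RPKM in proteoid roots and 0.4, 1.8 and 0.2 RPKM in leaves. The groups did not overlap for either, and the log2 differences of 5.53 ± 0.61 and 5.95 ± 0.60 had rescaled adjusted p-values of 6.98e-04 and 5.04e-05 in limma.

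Purple acid phosphatases, which release phosphate from organic esters, were called higher mostly among sequences of a single description. The list had 11 higher and 3 lower of 53 tested, 20.8% and 5.66%, below the background in both directions. Of the 11, 8 were described as PAP10, a phosphatase of the root surface, out of 9 tested. PAP10 sequence LAGI01_35427 had 148, 183 and 203 RPKM in proteoid roots and 0.3, 1.3 and 1.1 RPKM in leaves, a log2 difference of 7.06 ± 0.61 (rescaled adjusted p = 6.28e-05). PAP22 and PAP7, the next most abundant, were not called. PAP22 had 91.3, 56.5 and 56.6 RPKM in proteoid roots and 44.3, 46 and 19.6 RPKM in leaves, with no overlap of the groups, and PAP7 overlapped between tissues. The list's median changed sign with the scaling, at 0.44 as deposited and -0.05 after rescaling.

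SPX proteins, which bind inositol phosphates and relay phosphate status, had 13 higher and 0 lower of 30. A protein with an SPX and a RING finger domain, LAGI01_21760, had 4.2, 22.7 and 25.1 RPKM in proteoid roots and 0.7, 0.4 and 0.2 RPKM in leaves. SPX2 (LAGI01_41314) had 14, 16.9 and 18.8 RPKM in proteoid roots and 5.1, 15.2 and 5.5 RPKM in leaves and was not called. SPX3 (LAGI01_46560) had 7.6, 5.4 and 8.1 RPKM in proteoid roots and 0.4, 10.1 and 2 RPKM in leaves, and its call (adjusted p = 0.0473) was lost after rescaling (rescaled adjusted p = 0.387).

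MATE and malate channel transporters were mostly higher in proteoid roots, with 46 higher and 5 lower of 65 tested (median 2.19). Of the 65, 30 were described as MATE efflux family protein and 11 as MATE efflux protein-related, names that give no substrate. All 12 sequences described as FRD3, a citrate exporter that in Arabidopsis loads citrate into the xylem, rose. FRD3 sequence LAGI01_21605 had 253, 299 and 408 RPKM in proteoid roots and 0.8, 1.3 and 0.4 RPKM in leaves, the highest level in the list. A MATE efflux protein, LAGI01_20818, had 15.7, 52.8 and 46.6 RPKM in proteoid roots and 0.2, 0 and 0.1 RPKM in leaves. Another, LAGI01_25758, had 15.7, 46.2 and 78.9 RPKM in proteoid roots and 12.8, 13 and 3.3 RPKM in leaves, and its call was lost after rescaling (rescaled adjusted p = 0.0758). Of 11 sequences described as AtALMT9, a malate channel of the vacuole, 8 rose.

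The enzymes that make malate and citrate differed less. Phosphoenolpyruvate carboxylase, which adds bicarbonate to phosphoenolpyruvate, had 13 higher and 1 lower of 27, and 8 higher without PdL3 or without PdR2. Its most abundant form, ATPPC3 (LAGI01_43052), had 131, 105 and 88.9 RPKM in proteoid roots and 78.3, 75.2 and 29.9 RPKM in leaves, and the difference of 0.92 did not pass (adjusted p = 0.278). ATPPC2 (LAGI01_89796) had 39.2, 34.5 and 29.5 RPKM in proteoid roots and 12.7, 8.1 and 3.4 RPKM in leaves and passed. Citrate synthase and malate dehydrogenase had 12 higher and 11 lower of 48, and 5 higher without PdR2 or without PdR3. All 10 sequences of the peroxisomal citrate synthase CSY3 rose. A cytosolic malate dehydrogenase, LAGI01_46087, had 142, 303 and 255 RPKM in proteoid roots and 61.7, 54.8 and 24.4 RPKM in leaves, while PMDH1 of the peroxisome (LAGI01_47002) had 3, 1.6 and 1.6 RPKM in proteoid roots and 264, 146 and 38.2 RPKM in leaves.

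Iron and metal genes held a group that was high in proteoid roots and near 0 in leaves. The list had 35 higher and 4 lower of 85 (median 0.78), with 33 higher and 21 lower after rescaling. Nicotianamine synthase NAS4, which makes a metal chelator, was listed at 0 in the leaf libraries and at 100.2, 85 and 94.5 RPKM in proteoid roots. All 8 sequences described as FRU and all 4 as BHLH038, factors that drive iron uptake genes, rose, as did the single sequence of the root ferric reductase FRO2. The reductases ATFRO6 and ATFRO7, known from shoots and chloroplasts, fell. Ferritin, the iron store of plastids, was not called. ATFER1 had 105, 52.9 and 56.3 RPKM in proteoid roots and 135, 158 and 32.2 RPKM in leaves.

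Nitrate, ammonium and sulfate carriers were mostly higher in proteoid roots, and potassium genes stood near the background. The nitrate, ammonium and sulfate list had 84 higher and 16 lower of 121 (median 1.92). AST68, a sulfate transporter, had 47.2, 24 and 24.4 RPKM in proteoid roots and 5.3, 4.6 and 1.5 RPKM in leaves. All 11 sequences of NRT1.5, which loads nitrate into the xylem, and 21 of 22 of SULTR1;3 rose. The ammonium transporter ATAMT1;2 ran the other way, listed at 0 in the root libraries and at 33.2, 28.4 and 6.2 RPKM in leaves. Potassium genes had 29 higher and 6 lower of 112, and 27 higher and 19 lower after rescaling, when the median changed sign to -0.15 from the 0.27 of the deposited values. Within it the high-affinity carrier HAK5 (LAGI01_50513) had 29.3, 68.8 and 77.6 RPKM in proteoid roots and 0.6, 0.4 and 0.1 RPKM in leaves, and all 8 HAK5 sequences rose. All 4 sequences of AKT2/3, a channel of the phloem, fell.

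Aquaporins, which pass water and small solutes, had 47 higher and 12 lower of 101, and 49 higher and 21 lower after rescaling. PIP1;4 (LAGI01_43597) had 1095, 490.2 and 403 RPKM in proteoid roots and 227, 168 and 54.1 RPKM in leaves, and was not called without PdL3 (log2 difference 1.62). All 8 sequences of the vacuolar TIP4;1 and all 6 of NIP5;1, a boron channel, rose, while 5 of 6 of DELTA-TIP fell. The most abundant, a GAMMA-TIP (LAGI01_71539), had 472, 529.8 and 429.5 RPKM in proteoid roots and 105, 140 and 2368 RPKM in leaves. PdL3 alone was far above the other leaf libraries, the groups overlapped and the sequence was not called (adjusted p = 0.577). Without PdL3 it was called higher in proteoid roots (log2 difference 1.97, adjusted p = 0.00564 in limma).

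**Figure D2:**
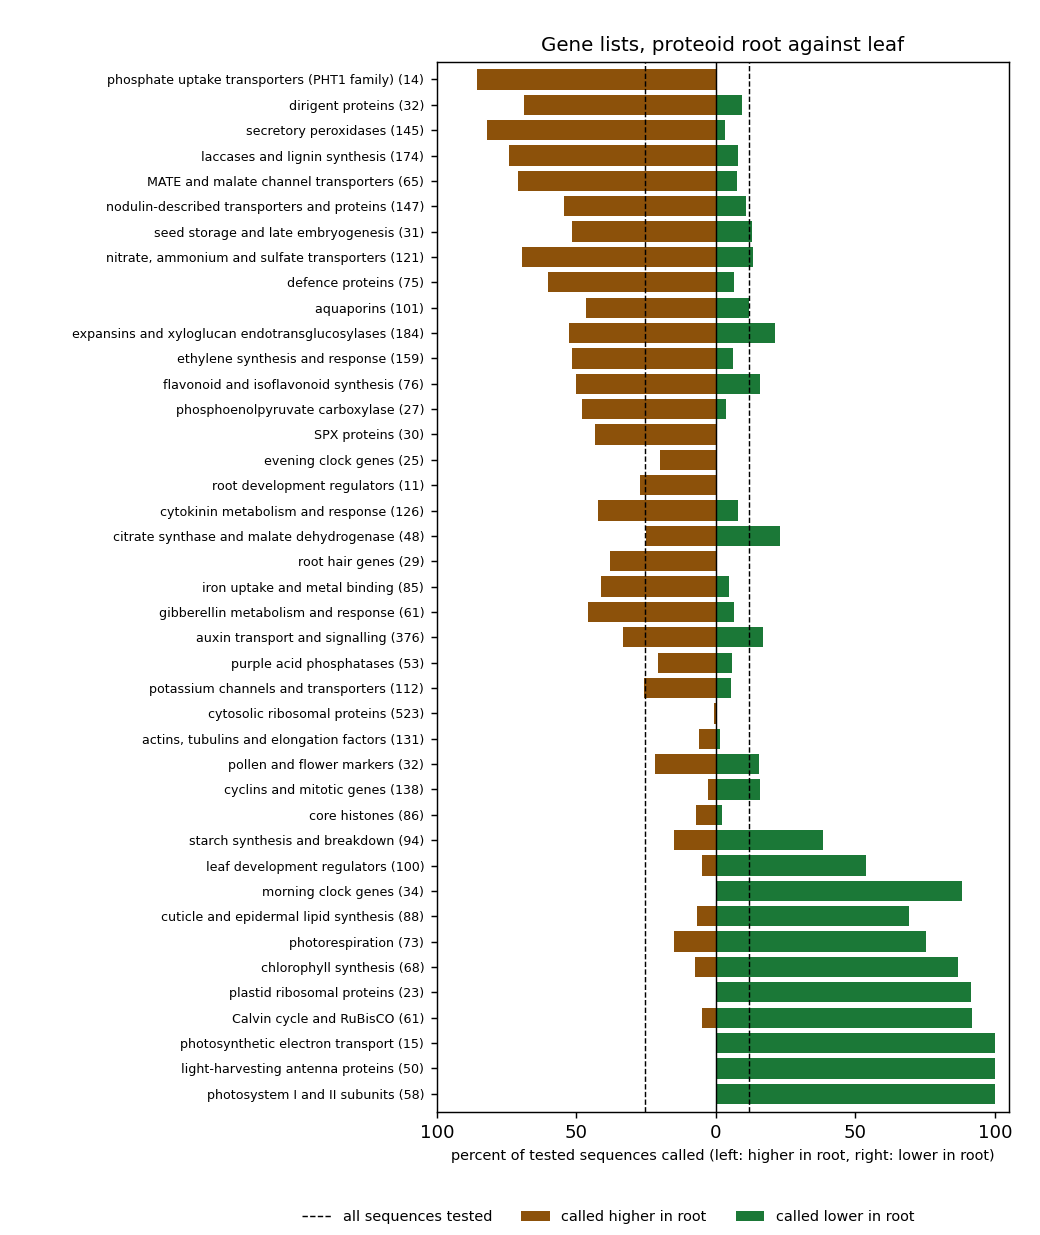
Percent of the tested sequences of each gene list called higher (left) or lower (right) in proteoid roots than in leaves, with dashed lines at the background of 25.5% higher and 11.8% lower. Antenna, photosystem and electron transport lists reach 100% lower, and phosphate uptake transporters (85.7%) and secretory peroxidases (82.1%) have the largest shares higher.

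The plot of shares per list places each group against the background of all sequences. Lists of the chloroplast have their long bars on the lower side, and lists of phosphate uptake, wall phenolics and defence on the higher side.

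Peroxidases, enzymes of lignin synthesis and dirigent proteins were mostly higher in proteoid roots. Secretory peroxidases, which cross-link wall phenolics, had 119 higher and 5 lower of 145 (median 3.57). RCI3 (LAGI01_82189) had 241, 201 and 207 RPKM in proteoid roots and 0.1, 0.5 and 0.3 RPKM in leaves, and all 9 of its sequences rose. A second peroxidase, LAGI01_45588, had 302, 441 and 329.5 RPKM in proteoid roots and 15.6, 13 and 3.4 RPKM in leaves. Of 2 tested sequences described as peroxidase 21, 1 rose. The more abundant one was high in both tissues and was not called, with 645, 326 and 299.7 RPKM in proteoid roots and 343, 452 and 191 RPKM in leaves. Laccases and enzymes of lignin synthesis had 129 higher and 14 lower of 174. Phenylalanine ammonia-lyase pal1 (LAGI01_38111), the entry step of the phenylpropanoid pathway, had 46.2, 260.4 and 319 RPKM in proteoid roots and 30.4, 20.1 and 8.5 RPKM in leaves, with PdR1 well below the other root libraries. It was not called without PdL3 (log2 difference 2.64). Dirigent proteins, which steer the coupling of phenolics, had 22 higher and 3 lower of 32. The one with the highest mean, LAGI01_63252, had 67.2, 333 and 278 RPKM in proteoid roots and 44.5, 25.1 and 7.7 RPKM in leaves, whereas LAGI01_61861 fell, with 32.2, 9.2 and 7.9 RPKM in proteoid roots and 52.2, 138 and 42.9 RPKM in leaves.

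Flavonoid genes were split between root and leaf forms. The list had 38 higher and 12 lower of 76, and 25 higher without PdR2. Chalcone synthase TT4, the first enzyme of the pathway, had 16 of 18 sequences higher, and TT4 sequence LAGI01_69633 had 646, 914 and 969 RPKM in proteoid roots and 272, 270.3 and 97.4 RPKM in leaves. Flavonol synthase FLS (LAGI01_57561) and the flavanone hydroxylase F3H (LAGI01_58821) ran the other way. FLS had 0.2, 0.2 and 0.1 RPKM in proteoid roots and 258, 295 and 73.7 RPKM in leaves, and F3H had 0, 0.3 and 0 RPKM in proteoid roots and 177, 155 and 50.8 RPKM in leaves. Of 7 F3H sequences 5 fell and 2 rose.

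Wall-loosening genes and some root hair genes also differed. Expansins and xyloglucan endotransglucosylases had 97 higher and 39 lower of 184, and 86 higher and 65 lower after rescaling. XTR6, a xyloglucan enzyme, had 34, 302 and 327 RPKM in proteoid roots and 3.4, 8.8 and 3.4 RPKM in leaves, and all 16 of its sequences rose, while all 7 of expansin ATEXPA8 fell. RHD2, the NADPH oxidase of root hair growth, had 12.3, 61.8 and 63.5 RPKM in proteoid roots and 0.8, 0.5 and 0.2 RPKM in leaves, with PdR1 well below the other root libraries. ATEXPA7, an expansin of root hair cells, was listed at 0 in leaves and at 12.5, 12.6 and 5.8 RPKM in proteoid roots. Root hair genes as a list had 11 higher and 0 lower of 29. The 11 were 7 of 10 RHD2 and 4 of 4 ATEXPA7 sequences. Of the 13 sequences of RHD4 and the 2 of TRH1, other root hair genes, 0 were called. SHR, a factor that patterns the root, had 19.9, 5.9 and 6 RPKM in proteoid roots and 2.8, 2.1 and 0.8 RPKM in leaves, a call lost without PdL3, where the log2 difference was 1.69. SCR, its partner, had 3.8, 1.3 and 1 RPKM in proteoid roots and 4.5, 5.9 and 2.7 RPKM in leaves and was not called.

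**Figure D3:**
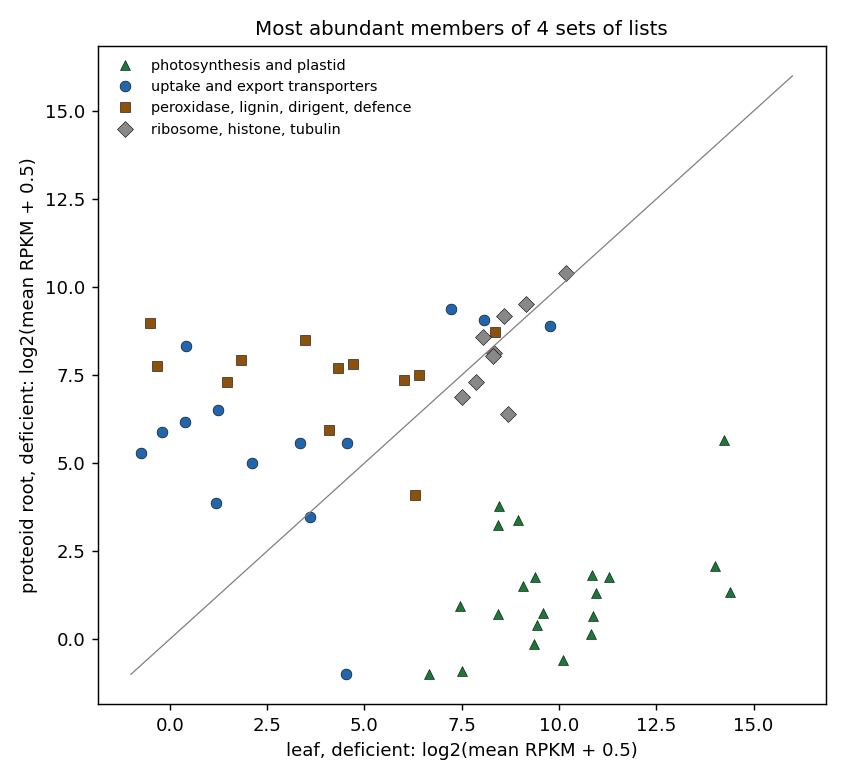
Mean RPKM in proteoid roots (vertical) against mean RPKM in leaves (horizontal) on log axes, as log2(mean RPKM + 0.5), for the most abundant members of 4 sets of gene lists, with 3 libraries per mean and a line of equal level. Photosynthesis and plastid members lie below the line, most transporters and most peroxidase, lignin, dirigent and defence members above it, and ribosome, histone and tubulin members near it.

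The plot of mean levels sets the groups described so far on the same scale. The transporter farthest below the line is ATAMT1;2, and the peroxidase closest to the line is peroxidase 21.

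The hormone lists held more sequences higher than lower in proteoid roots. Cytokinin genes had 53 higher and 10 lower of 126, and 50 higher and 16 lower after rescaling. CKX3 (LAGI01_30270), a cytokinin oxidase that degrades the hormone, had 153, 269.5 and 252 RPKM in proteoid roots and 0, 0.2 and 0 RPKM in leaves. All 11 sequences described as CKX3 in either wording rose, while all 6 described as CKX7 fell. Ethylene genes had 82 higher and 10 lower of 159. EFE, the enzyme that makes ethylene, had 138, 255 and 287 RPKM in proteoid roots and 5.4, 3.2 and 1.2 RPKM in leaves, and all 11 EFE sequences, 15 EIN3 sequences and 6 ETR2 sequences rose. ERF1 had 3.9, 134 and 153 RPKM in proteoid roots and 0.3, 1.9 and 0.3 RPKM in leaves, with PdR1 far below the other root libraries. ERF9 had 138, 174 and 146 RPKM in proteoid roots and 105, 3.7 and 1.3 RPKM in leaves. PdL1 alone was near the root level, and the call was lost after rescaling (rescaled adjusted p = 0.0556).

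Auxin genes had 125 higher (33.2%) and 63 lower (16.8%) of 376. ARF9, an auxin response factor, had 92.5, 106 and 138 RPKM in proteoid roots and 2.9, 5.7 and 1.4 RPKM in leaves, and 26 of its 27 sequences rose. The efflux carrier EIR1, known from root gravity responses, rose in 5 of 5 sequences, and PIN3 fell in 8 of 9. Gibberellin genes had 28 higher and 4 lower of 61, and 27 higher and 11 lower after rescaling, and their 3 most abundant members were not called. All 4 sequences each of ATGA2OX2 and GA2OX6, oxidases that inactivate gibberellin, rose.

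Defence proteins were abundant in proteoid roots. The list had 45 higher and 5 lower of 75, and 40 higher and 9 lower after rescaling. An acidic endochitinase, LAGI01_50085, had 96.3, 338 and 295 RPKM in proteoid roots and 2.7, 4.8 and 1.7 RPKM in leaves, and the basic chitinase ATHCHIB had 90.8, 179 and 198 RPKM in proteoid roots and 4.9, 1.1 and 0.8 RPKM in leaves. Among the 10 most abundant sequences of proteoid roots were 2 with a moderate match to DRR4_PEA, a pea protein of the PR10 group induced by infection. LAGI01_30475 had 2795, 5226 and 5896 RPKM in proteoid roots and 48.5, 51.6 and 39.7 RPKM in leaves. LAGI01_60191 had 1626, 3466 and 4082 RPKM in proteoid roots and 18, 11.6 and 10 RPKM in leaves. Their log2 differences were 6.56 ± 0.67 and 7.74 ± 0.66, with rescaled adjusted p-values of 1.08e-04 and 6.44e-05 in limma. Nodulin-described proteins had 80 higher and 16 lower of 147. The early nodulin-related sequence LAGI01_75083 had 8.1, 806 and 833 RPKM in proteoid roots and 0.1, 0.3 and 0.2 RPKM in leaves, so that PdR1 stood far below the other root libraries and still above the leaves.

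Central carbon metabolism was described by MapMan class. The fermentation class had the highest median, 2.22, with 53 higher and 14 lower of 82. Alcohol dehydrogenase ADH1 (LAGI01_38999) had 110, 1566 and 1741 RPKM in proteoid roots and 19.3, 23.6 and 12 RPKM in leaves, and pyruvate decarboxylase PDC2 had 154, 952 and 1084 RPKM in proteoid roots and 24, 18.2 and 8.6 RPKM in leaves. In both, PdR1 lay far below PdR2 and PdR3 but above every leaf library. Without PdR1 the count of all sequences called higher was 17580. The glyoxylate and gluconeogenesis class had 33 higher and 3 lower of 41. Malate synthase MLS had 128, 254 and 211 RPKM in proteoid roots and 0, 0.2 and 0.1 RPKM in leaves, and PCK1, which makes phosphoenolpyruvate from oxaloacetate, had 17.1, 139.5 and 144 RPKM in proteoid roots and 2.1, 0.8 and 0.6 RPKM in leaves.

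Glycolysis had 191 higher and 29 lower of 354 (median 1.52), and 187 higher and 44 lower after rescaling. Cytosolic glyceraldehyde phosphate dehydrogenase was abundant in both tissues. GAPC1 had 2057, 1096 and 1006 RPKM in proteoid roots and 469, 480.5 and 254 RPKM in leaves, and GAPC2 had 1315, 1083 and 1180 RPKM in proteoid roots and 349.9, 436 and 194 RPKM in leaves. GAPC1 was not called when any of the 3 root libraries was left out (1.44, 1.90 and 1.96), nor GAPC2 without PdR2 (2.01) or PdR3 (1.95). A pyruvate kinase, LAGI01_69963, was lower in proteoid roots, with 8.5, 7.7 and 8.6 RPKM in proteoid roots and 60.5, 32.3 and 3872 RPKM in leaves, and PdL3 alone carried most of that difference (rescaled adjusted p = 0.075). In the pentose phosphate class a transaldolase had 261, 305 and 283 RPKM in proteoid roots and 40.3, 49.2 and 22.1 RPKM in leaves. The citric acid class had 116 higher and 14 lower of 317, and 133 higher and 33 lower after rescaling. In it a 2-oxoacid dehydrogenase family protein, LAGI01_50282, had 437, 463 and 574 RPKM in proteoid roots and 20.9, 4.2 and 2.2 RPKM in leaves. In nitrogen metabolism the cytosolic glutamine synthetase ATGSR1 had 256, 218 and 188 RPKM in proteoid roots and 58.5, 91.4 and 43.9 RPKM in leaves, and lost its call without any of the root libraries or PdL1 (1.70 to 1.93). The plastid form GS2 had 19.3, 22.6 and 18.6 RPKM in proteoid roots and 244, 147 and 53.2 RPKM in leaves, and GLU1, the ferredoxin-dependent glutamate synthase, had 11.3, 7.4 and 6.7 RPKM in proteoid roots and 109.8, 62.5 and 20 RPKM in leaves.

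**Figure D4:**
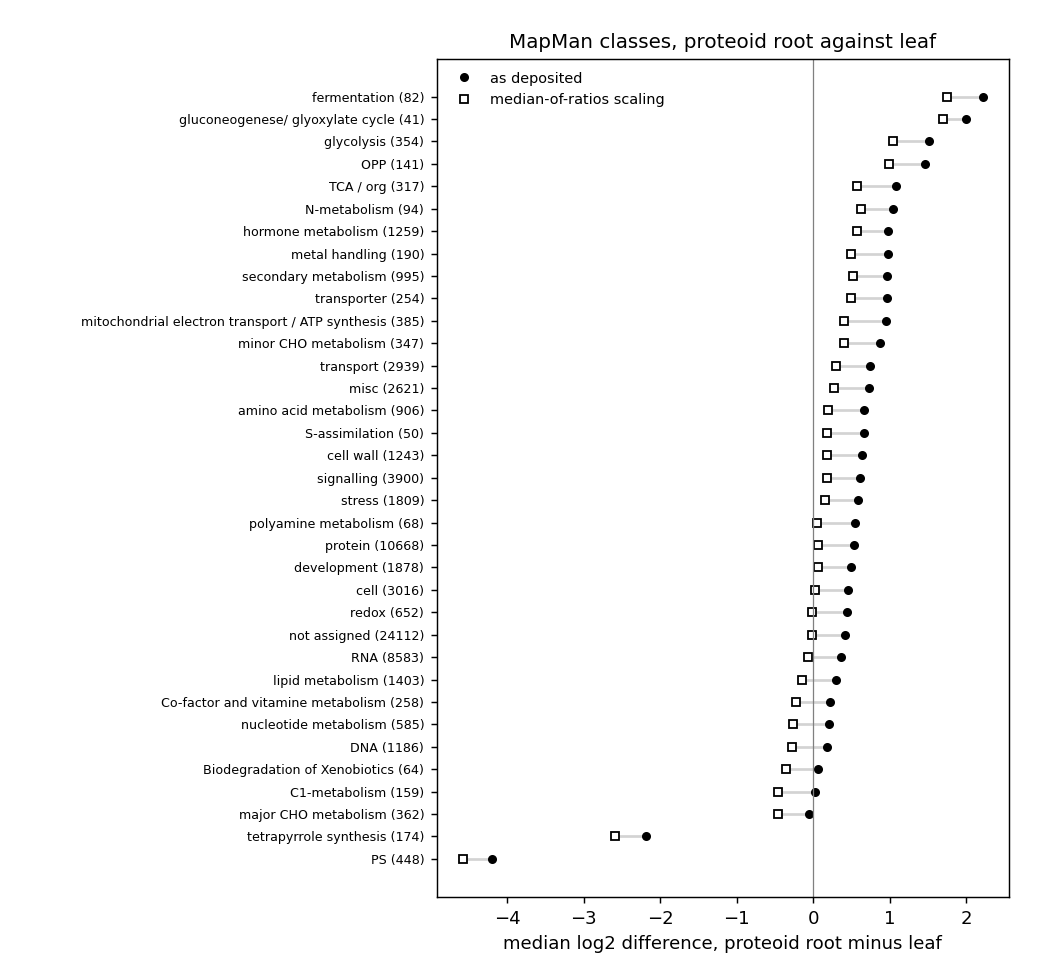
Median log2 difference (proteoid root minus leaf) of the sequences of each MapMan class with at least 20 tested, as deposited and after median-of-ratios scaling. Photosynthesis (-4.20) and tetrapyrrole synthesis (-2.19) lie lowest and fermentation (2.22) highest, and scaling lowers the classes by similar amounts.

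The plot of class medians shows that the order of the classes is much the same under both scalings, while classes near the middle change sign. The protein class, with 10668 sequences, had a median of 0.53 as deposited and 0.07 after rescaling. Lipid metabolism had 0.30 and -0.15 on these scales.

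Most genes of basic cell functions were not called as deposited, though cyclins and mitotic genes had 15.9% lower, against 11.8% of all tested. After rescaling, 24.6% of all sequences tested were higher and 21.7% lower. Cytosolic ribosomal proteins had 4 higher and 2 lower of 523, with a median of 0.00 as deposited and -0.55 after rescaling, when 3 were higher and 35 lower. Ribosomal protein L10 (LAGI01_63223) had 1092, 536 and 587 RPKM in proteoid roots and 714, 673 and 329 RPKM in leaves. Core histones had 6 higher and 2 lower of 86, and 3 higher and 21 lower after rescaling. Actins, tubulins and elongation factors had 8 higher and 2 lower of 131, and 6 higher and 17 lower after rescaling. Cyclins and mitotic genes had 4 higher and 22 lower of 138, and 13 of the 22 were described as CYCD3;1, a cyclin that starts the cell cycle. The lower count was 11 without PdR2, 13 without PdR3 and 53 after rescaling. CYCD3;1 sequence LAGI01_30199 had 4.7, 0.9 and 0.8 RPKM in proteoid roots and 9.6, 52.5 and 19.6 RPKM in leaves. CDKB2;2 sequence LAGI01_12677 rose, with 61.3, 115 and 111 RPKM in proteoid roots and 5.1, 10.4 and 5.7 RPKM in leaves.

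Morning clock genes were lower in proteoid roots. Of 34 tested, 30 fell and 0 rose, and all 34 fell after rescaling. Their sum was 111.0, 48.6 and 45.5 RPKM in proteoid roots and 627.8, 301.8 and 97.4 RPKM in leaves, highest in PdL1. Without PdL1 6 fell, without PdR2 10 and without PdR3 11. LHY, a MYB factor that peaks around dawn, had 7.1, 1.9 and 2 RPKM in proteoid roots and 63.4, 19.6 and 5.6 RPKM in leaves. CCA1, its partner, had 1, 0.5 and 0.5 RPKM in proteoid roots and 11.9, 7 and 1.7 RPKM in leaves. LHY was not called without PdL1, where its log2 difference was -1.63. Evening clock genes had 5 higher and 0 lower of 25, all 5 described as GI. The count was 12 without PdR1, and 1 without PdR2, PdR3 or PdL3 or after rescaling. The most abundant GI sequence had 9.1, 31.4 and 40.3 RPKM in proteoid roots and 7.7, 8.2 and 2.2 RPKM in leaves, and its call was lost after rescaling (rescaled adjusted p = 0.0838). The hour of harvest of each sample is not given in the sources used here, and its part in these differences was not tested.

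Markers of other sources were present at low to moderate levels. Seed storage and late embryogenesis descriptions had 16 higher and 4 lower of 31, with a summed level of 1142.6, 697.7 and 694.8 RPKM in proteoid roots and 258.7, 243.2 and 116.8 RPKM in leaves. The most abundant were late embryogenesis proteins, which also accumulate in drying or salt-stressed tissue. LAGI01_41800 had 177, 165 and 179 RPKM in proteoid roots and 40.9, 59.7 and 31.7 RPKM in leaves. Oleosins, which coat the oil bodies of seeds, fell in all 3 of their sequences. Flower and pollen descriptions summed to 105.1, 79.6 and 100.6 RPKM in proteoid roots and 110.7, 136.3 and 46.8 RPKM in leaves, with 7 higher and 5 lower of 32. After rescaling 6 were higher and 14 lower, and without PdL3 6 were higher and 11 lower. Of the 7 higher as deposited, 2 were described as AGL44 and 1 each as AGL12 and AGL21. These names do not by themselves mark flower or pollen. Of the markers of the other tissue, the antenna list summed to at most 90.5 RPKM in proteoid roots and the PHT1 list to at most 31.1 RPKM in leaves. The part of other cell types in the tissue difference was not tested.

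Some descriptions held both root-high and leaf-high sequences. Among 6478 descriptions with at least 2 tested sequences, 467 had calls in both directions. Under a stricter rule, 63 remained. It asked of both sequences 10 RPKM or more on average in the higher tissue and no overlap of the groups. The 63 include broad family descriptions, such as RING finger (567 tested), pentatricopeptide repeat (357) and bHLH proteins (226). Opposite calls within such a family need not be forms of the same gene. The examples here were chosen after their values were seen. TT4 sequence LAGI01_76186 had 92.1, 334 and 244 RPKM in proteoid roots and 1.8, 0 and 0 RPKM in leaves, whereas TT4 sequence LAGI01_29302 had 0.5, 0.3 and 0.3 RPKM in proteoid roots and 289, 306 and 91.3 RPKM in leaves. CLA1, the first enzyme of plastid isoprenoid synthesis, had a root form LAGI01_42520 with 64.2, 320.4 and 225 RPKM in proteoid roots and 0.8, 1.1 and 0.1 RPKM in leaves. Its leaf form LAGI01_74391 had 0.6, 0.2 and 0.1 RPKM in proteoid roots and 63.9, 31.4 and 7.5 RPKM in leaves. The aquaporin PIP3 had LAGI01_69887 with 94, 37.7 and 38.2 RPKM in proteoid roots and 0.1, 0 and 0.2 RPKM in leaves and LAGI01_70674 with 27.5, 7.8 and 7.7 RPKM in proteoid roots and 324, 315 and 97.6 RPKM in leaves. That the libraries of the 2 tissues did not overlap in these pairs follows from the rule.

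Most sequences called between the tissues at deficient supply were called in the same direction at sufficient supply. In a fit of all 12 libraries, 32113 sequences (44.9%) were called at deficient and 29767 (41.6%) at sufficient supply. Of these, 24532 were called in the same direction at both, 76.4% of those called at deficient and 82.4% of those called at sufficient supply, and 23 in opposite directions. The test of the difference between these 2 contrasts called 94 of 71553 sequences (0.131%), 88 (0.123%) with a more positive and 6 (0.00839%) with a more negative root minus leaf difference at deficient supply, and 4179 had an unadjusted p below 0.05. The count of 94 was 34 without PdL3 and 247 without PdL1, the lowest and highest when each library was left out, and 1726 on the barcoded libraries. Over all sequences the median difference between the contrasts was 0.28, with a median root minus leaf difference of 0.48 at deficient and 0.22 at sufficient supply. Sequences were also kept on the 6 deficient libraries alone. The part of this shift and of the filter in the 88 against 6 was not tested. Of the 88, 82 were higher in proteoid roots at deficient supply in the 6-library fit, which shares those libraries with the test. At sufficient supply 37 of the 88 were higher in roots, 37 were not called and 14 were lower. The deficient minus sufficient change of the contrast is the same quantity as the root response minus the leaf response.

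Of the 17 sequences named for this test, a PAP10 sequence had the largest change, followed by a putative nodulin (LAGI01_56202, 5.02). By list, the calls with a more positive difference were most in MATE and malate channel transporters, 8 of 65 tested. Purple acid phosphatases had 4 of 53, secretory peroxidases 4 of 145 and PHT1-type transporters 3 of 14, against 0.123% of all sequences tested. PAP10 sequence LAGI01_35427, at 148, 183 and 203 RPKM in deficient proteoid roots, had 0.3, 0.7 and 0.8 RPKM in sufficient roots and 0, 0 and 0 RPKM in sufficient leaves. Its tissue difference was 5.96 ± 0.53 log2 units larger at deficient supply (adjusted p = 1.86e-05, limma). PHT5 sequence LAGI01_79525 had 103, 68.1 and 90.2 RPKM in deficient proteoid roots, was listed at 0 in all 6 leaf libraries, and had 0.9, 4.5 and 2.8 RPKM in sufficient roots, a difference of 4.92 ± 0.57. A peroxidase, LAGI01_45494, had 70.5, 57.6 and 66.3 RPKM in deficient and 2, 2.2 and 1.6 RPKM in sufficient roots, a difference of 4.66 ± 0.44. All 3 stood at or below 1.3 RPKM in every leaf library at both supplies.

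A sequence each of the multicopper oxidases LPR1 and LPR2 showed the same pattern. Of 4 tested sequences described as LPR1, 1 was higher and 3 were lower in proteoid roots than in leaves at deficient supply. LPR1 (LAGI01_52976) had 159, 223 and 292 RPKM in deficient and 5.9, 10.1 and 11.8 RPKM in sufficient roots, and no leaf library exceeded 0.1 RPKM. LPR2 (LAGI01_46294) had 165, 194 and 187 RPKM in deficient and 8.2, 11.5 and 11.2 RPKM in sufficient roots. Both were called in all 22 alternative analyses, as were PAP10, PHT5 and the peroxidase, 5 of the 17 sequences named.

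Transport and metabolism genes made up much of the rest. FRD3 (LAGI01_21605) had 253, 299 and 408 RPKM in deficient and 3.7, 19.9 and 27.8 RPKM in sufficient roots, a difference of 4.57 ± 0.77 (adjusted p = 0.0158). MLS had 128, 254 and 211 RPKM in deficient and 12.2, 29.5 and 21.7 RPKM in sufficient roots. The potassium carrier ATKT1, the cytochrome P450 CYP76C7, a bHLH factor (LAGI01_44725), 2 nodulin-described proteins (LAGI01_56202 and LAGI01_39882) and a formamidase (LAGI01_37377) also had the larger difference at deficient supply. Of the 17 sequences, 6 lost the call both without PdL3 and after rescaling, namely FRD3 (adjusted p = 0.209 without PdL3), MLS (0.109), ATKT1, CYP76C7, the formamidase and ALDH11A3. The bHLH factor and GAMMA-VPE lost it without PdL3.

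A few sequences were also present in leaves, and 1 ran the other way. GAMMA-VPE, a vacuolar protease, had 50.4, 20.2 and 17.5 RPKM in deficient proteoid roots and 1.3, 4 and 1.2 RPKM in deficient leaves. At sufficient supply it had 12, 9.4 and 10.8 RPKM in roots and 17.4, 15.1 and 11.8 RPKM in leaves. Its supply difference was not called without PdL3 (adjusted p = 0.115). ALDH11A3, a glyceraldehyde phosphate dehydrogenase that yields no ATP, had 9.6, 19.9 and 23.1 RPKM in deficient proteoid roots and 34.6, 22.4 and 8 RPKM in deficient leaves. In sufficient plants it had 0, 0.4 and 0.5 RPKM in roots and 29.4, 11.1 and 11.5 RPKM in leaves. Its tissue difference was -0.16 and not called at deficient supply, and -4.39 and called at sufficient supply. The difference between them was not called without PdL3 (adjusted p = 0.151) or after rescaling (rescaled adjusted p = 0.09). ATIREG1, an iron exporter, had 22.8, 20.8 and 17.3 RPKM in deficient and 3.8, 3.1 and 2.4 RPKM in sufficient roots. Its leaf values were 5.7, 4.9 and 1.9 RPKM at deficient and 6.3, 6.5 and 7.4 RPKM at sufficient supply. A pectinesterase, LAGI01_81839, had 7.9, 11.9 and 9.9 RPKM in deficient and 43.4, 50 and 39.7 RPKM in sufficient roots, and its tissue difference was smaller at deficient supply (-2.42 ± 0.47). This call held in only 9 of 22 alternative analyses, as did those of ATKT1 and of the nodulin-described LAGI01_39882.

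**Figure D5:**
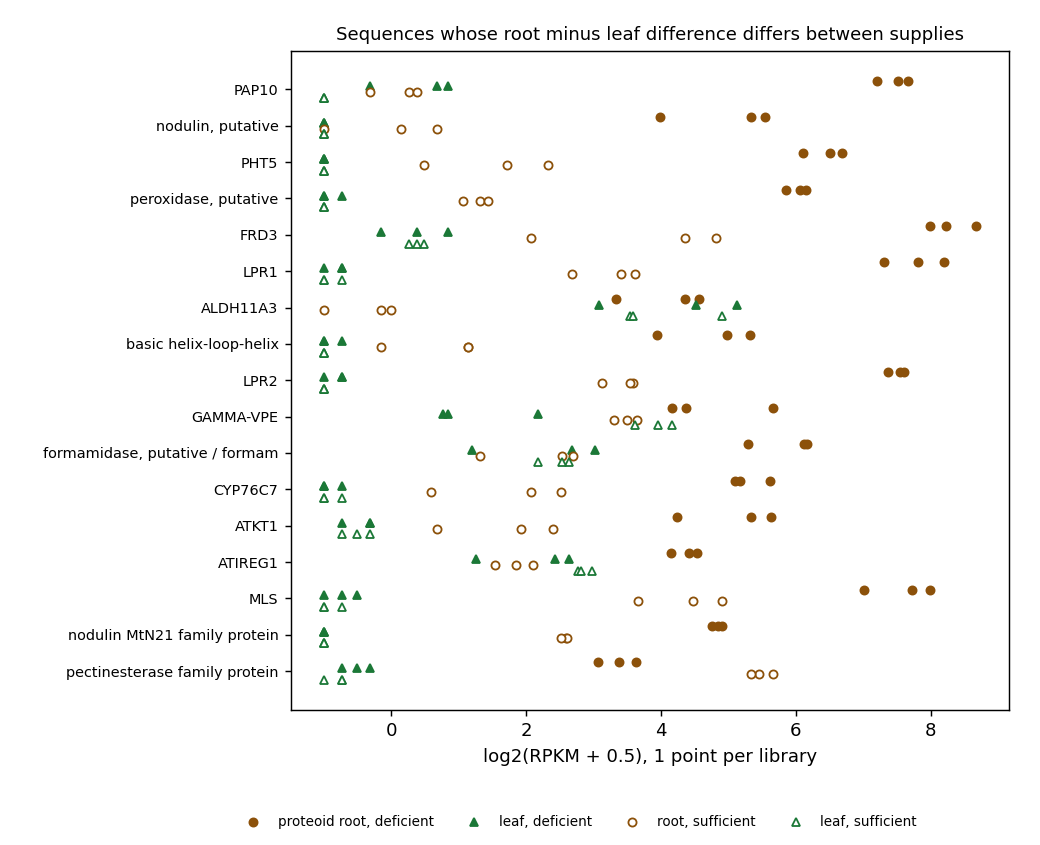
RPKM on a log axis, as log2(RPKM + 0.5), of the 17 named sequences whose root to leaf difference differed between supplies, in each of the 12 libraries of the 4 groups. Of these, 16 have the more positive difference at deficient supply and 1, the pectinesterase, the more negative one.

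The plot of the 17 sequences by group shows proteoid roots apart from the other 3 groups for most of them, and for many of them sufficient roots lie between proteoid roots and leaves.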

How the data were processed

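Poly-A RNA of roots and leaves at 2 phosphorus supplies was sequenced for 76 cycles on an Illumina instrument, per the labels' protocols. Bowtie is named in the submitters' processing notes, with neither version nor role, and how reads were counted is not given in the sources used here. The deposited values have 1 decimal and were taken to be RPKM, a unit that the labels do not name. No read counts were used, the depth of each library is unknown, and no sequences were read.

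The fit used log2(RPKM + 0.5), unscaled, in limma 3.58.1 in R 4.3.3 (intensity trend, Benjamini and Hochberg adjustment over all 71553 sequences, call at an adjusted p below 0.05). A count test planned for the case of counts was not run. Root minus leaf used the 6 deficient libraries, and its difference between the supplies all 12. Python 3.11.15, pandas 2.3.3 and matplotlib 3.10.9 made the tables and plots. The fit was also run on simulated data with 200 changed sequences. These data had independent noise and no library like PdL3, so the run does not bear on the reliability of the calls here.

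Named are the 12 largest differences in each direction (groups that do not overlap, 20 RPKM or more on average in the higher group, 1 per informative description), the 3 most abundant members of each list and the 10 most abundant sequences of each tissue. Sequences named for a MapMan class, counts given for single descriptions within a list and the 17 sequences named for supply were chosen after their values were seen. The members and lists were chosen with earlier results of these data known. Same-numbered root and leaf libraries were not paired in the analysis.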

Additional observations from a re-analysis of the deposited data

Results flagged for a closer look

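Of the 94 sequences whose root minus leaf difference differed between supplies by limma's interaction test over all 12 libraries, 17 are listed here. The difference was larger at deficient supply by 5.96 log2 units for PAP10, 5.02 for a putative nodulin (LAGI01_56202), 4.92 for PHT5 (LAGI01_79525), 4.66 for a peroxidase (LAGI01_45494) and 4.57 for FRD3. It was larger by 4.45 for LPR1, 4.23 for ALDH11A3, 3.95 for a bHLH factor, 3.91 for LPR2 and 3.91 for GAMMA-VPE. For a formamidase it was larger by 3.82, for CYP76C7 by 3.57, for ATKT1 by 3.33, for ATIREG1 by 3.28, for MLS by 3.06 and for a nodulin MtN21 family protein by 2.27. For the pectinesterase LAGI01_81839 the value was -2.42, so its tissue difference was smaller at deficient supply. In 4 of these, ALDH11A3, GAMMA-VPE, the formamidase and ATIREG1, deficient and sufficient leaves also carried more than 1 RPKM in every library. Groups of 3 libraries were too small for a search for single outlying libraries.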

How the results depend on the processing

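The count of 26649 calls was 18864 to 26973 when each library was left out in turn, with 12749 to 18800 higher and 6115 to 10895 lower. A filter at 5 RPKM gave 11841 (8593 higher, 3248 lower), array weights, whose estimation did not converge, 58999 (33420 higher, 25579 lower), and values summed per description 3126 (1960 higher, 1166 lower). Lower calls numbered 15546 with median-of-ratios scaling, 14860 with upper-quartile scaling and 13114 without PdL3 and with median-of-ratios scaling. Array weights apart, those fits test fewer features or move the scale of PdL3. With the replicate number as a block, 25222 were called, and the correlations of same-numbered deviations (-0.018, -0.233 and 0.125) gave no pairing.

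The 94 calls of the supply comparison numbered 34 to 247 when each library was left out. The count was 34 without PdL3, 50 without PdL2, 247 without PdL1, 163 without PdR1, and 235, 50 and 54 without sufficient leaf replicate 1, 2 or 3. It was 46 with a pseudocount of 0.1, 38 without a filter, 148 with the replicate block, 1288 with array weights, 1726 on barcoded libraries, 14 with values summed per description and 33 without PdL3 and with median-of-ratios scaling, an alternative chosen after seeing the data. The cause of these changes was not tested.

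Of 110 called sequences named, 89 kept the call in all 17 alternatives and 0 changed direction. Leaving out 1 library ended the call of 17, 3 without PdR1, 9 without PdR2, 12 without PdR3, 4 without PdL1 and 8 without PdL3. Besides those named with the results, these were ADG1 (-1.45 to -1.90), TT4 sequence LAGI01_69633 (1.99 and 2.03), LAGI01_41800 (1.99 and 2.05), LOX1 (2.18 without PdR3) and LAGI01_61861 (-1.94 without PdR3). The counts of the lists, each taken in 1 direction, stayed within 1.5 times the reported count in 618 recomputed values and moved further in 79.

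Some of the named sequences that were not called changed sign between settings. With median-of-ratios scaling, upper-quartile scaling, array weights, and without PdL3 and with median-of-ratios scaling, the log2 difference of peroxidase 21 was -0.20, -0.26, -0.07 and -0.14, and that of ribosomal protein L10 was -0.19, -0.25, -0.36 and -0.13. GAMMA-TIP had -0.02 with median-of-ratios scaling, -0.08 with upper-quartile scaling, -0.27 on barcoded libraries and -0.28 to 1.97 when each library was left out. ALDH11A3 had 0.65 on barcoded libraries and -0.74 to 0.28 when each library was left out, and ATFER1 had -1.10 to 0.04.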

Other observations

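Some second-level MapMan classes that no gene list covers also stood apart, and they were chosen after their values were seen. Trehalose metabolism, whose sugar phosphate signals carbon status, had 53 higher and 1 lower of 64 tested in proteoid roots, with a median log2 difference of 2.11. Glutathione S-transferases, which conjugate toxic compounds, had 71 higher and 11 lower of 95. ATGSTU8 had 789, 1276 and 1508 RPKM in proteoid roots and 129, 234 and 53.3 RPKM in leaves. Jasmonate metabolism had 91 higher and 25 lower of 132. The lipoxygenase LOX1 had 882, 689.5 and 714 RPKM in proteoid roots and 154, 258 and 127 RPKM in leaves, and the reductase OPR2 had 142, 337 and 365 RPKM in proteoid roots and 5.2, 4.3 and 2 RPKM in leaves. Cytochromes P450 had 141 higher and 45 lower of 232, amino acid transport 130 higher and 14 lower of 260, and proton and vacuolar ATPases 95 higher and 1 lower of 232. The 14-3-3 proteins had 31 higher and 0 lower of 59. After rescaling the lower counts were 32 for amino acid transport, 15 for the ATPases and 4 for the 14-3-3 proteins.

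On the leaf side, protein folding had 98 lower and 10 higher of 230, and light signalling 69 lower and 26 higher of 275 (118 lower and 22 higher after rescaling). GDSL-motif lipases, esterases that include cutin-forming enzymes, were split between the tissues. They had 76 lower (46.3%) and 62 higher (37.8%) of 164, both above the background of 11.8% lower and 25.5% higher. Among the lower ones, LAGI01_74349 had 0.1, 0.2 and 0 RPKM in proteoid roots and 713, 632 and 166 RPKM in leaves. A hydroxyproline-rich glycoprotein, LAGI01_68882, had 0.3, 0.1 and 0.7 RPKM in proteoid roots and 375, 278 and 94.3 RPKM in leaves.

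Of the 676 sequences with a root mean of at least 20 RPKM that stood in PdR1 at under a 5th of both other root libraries, 654 were called higher than in leaves, and 532 after rescaling. Over all sequences tested the share called higher was 25.5%. The 676 were selected through high values in PdR2 and PdR3, so most had to be called higher, and the count says nothing more about them. A total of 33 sequences stood in PdR1 at over 5 times both.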
